A study of Mus musculus with 4 samples.

Results

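The calmodulin genes Calm2 and Calm3, 2 of 19938 genes measured, were read by 3 of the 35399 probe sets on Affymetrix mouse Gene 1.0 ST arrays. They were found as every probe set that the platform annotation pairs with either symbol. Calm2 had 2 probe sets (10453451 and 10599461) and Calm3 had 1 (10560304), and 0 further probe sets held either symbol among several.

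Cortical neurons were cultured from pups taken at postnatal day 0 from a mixed strain (SV129 x C57BL/6). The labels describe the mice as either Syt1-deficient or wild type and do not say which culture was which. Lentiviruses were added at 5 days in vitro and RNA was extracted after 14 to 15 days in vitro. The knockdown group (n = 2) received lentiviruses with shRNAs directed at calmodulin. The rescue group (n = 2) received those shRNAs together with wild-type calmodulin that they do not target. Control cultures received control lentivirus, and each value is a ratio to the control array of the same repeat. The knockdown and rescue samples of a repeat therefore share 1 control array. Nothing in the labels says that repeats 1 and 2 came from separate litters or cultures, so the spread between them may be technical.

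Calmodulin is a small calcium-binding protein with EF-hand motifs. Several genes on different chromosomes encode the same amino acid sequence, and they differ in promoters and untranslated regions. When calcium enters a neuron, loaded calmodulin binds and switches kinases, the phosphatase calcineurin, cyclases, pumps and channels. Because its transcripts come from several genes, shRNAs against each are needed to deplete the protein, and a construct that the shRNAs cannot bind is the usual test of specificity.

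Both calmodulin genes lay below control in all 4 samples, and Calm3 was lower still where the resistant calmodulin was present. On average, Calm2 stood at 38.9% ± 11.96 of control in the knockdown and at 48.5% ± 10.5 in the rescue (SD, n = 2 each). Calm3 stood at 29.5% ± 14.9 of control in the knockdown and at 13.6% ± 7.2 in the rescue (SD, n = 2 each). These ratios give no absolute level, so how much of the calmodulin RNA each gene supplied cannot be read from them.

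Both Calm2 probe sets lay below control in all 4 samples. Probe set 10453451 stood at 46.8% and 33.9% of control in the 2 knockdown samples, against 53.0% and 39.1% in the 2 rescue samples. Probe set 10599461 stood at 47.9% and 27.3% in the knockdown samples, against 58.9% and 43.1% in the rescue samples. For both probe sets the lowest value was in knockdown repeat 2 and the highest in rescue repeat 1, and the groups overlapped. The annotation lists the same 5 transcript records for both, so it does not say which stretch of Calm2 each one reads.

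The probe sets of Calm2 lay about as close together as is usual on this array. Probe set 10599461 minus 10453451 had log2 values of 0.03 and -0.31 in the knockdown samples, and 0.15 and 0.14 in the rescue samples. Among 777 genes with 2 probe sets the median absolute difference was 0.14 and 0.16 in the knockdown samples, and 0.14 and 0.13 in the rescue samples. In knockdown repeat 2, 24.3% of those genes had probe sets farther apart than those of Calm2.

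The Calm3 probe set stood at 40.1% and 18.9% of control in the knockdown samples, against 18.8% and 8.53% in the rescue samples. The rescue values were the lower ones in each repeat, and the groups did not overlap, although knockdown repeat 2 and rescue repeat 1 lay close together. Among all genes, 16.5% had both knockdown values above both rescue values, so the separation of the groups is common here. The annotation of Calm3 names 3 transcript records, of which 0 are shared with Calm2. The sources used here do not state whether any of the 3 probe sets also reads another calmodulin transcript or the resistant construct.

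**Figure D1:**
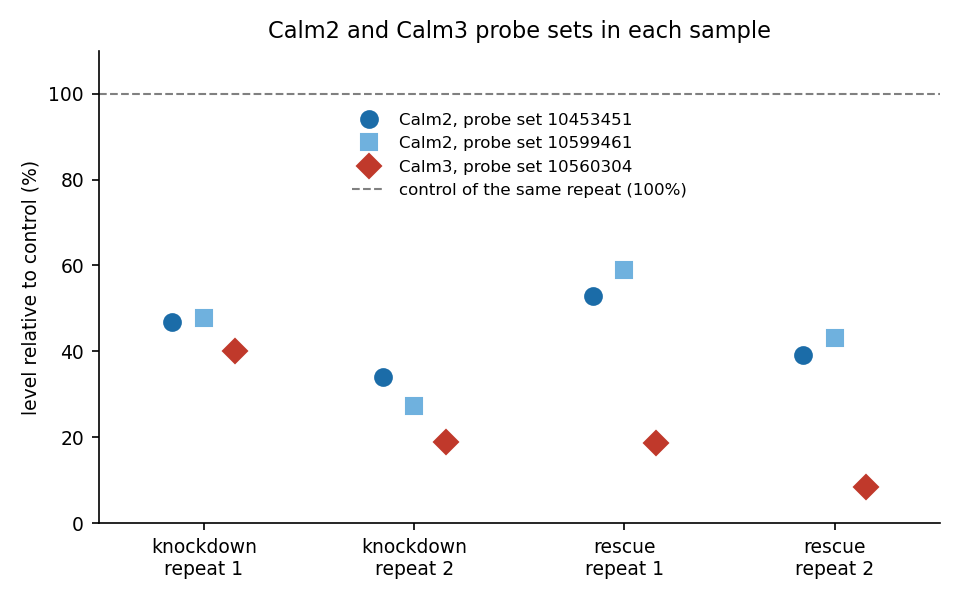
Level of each calmodulin probe set as a percentage of the control array of the same repeat (vertical axis), for the 2 knockdown and 2 rescue samples. Each point is 1 probe set in 1 array, and the dashed line is control. All 12 points lie below control, the highest at 58.9%, and the Calm3 point of rescue repeat 2 is the lowest at 8.53%.

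The comparison of the knockdown with control asked how far the shRNAs lowered their own targets. Averaged over its probe sets, Calm2 had log2 ratios of -1.08 and -1.72 in the 2 knockdown samples. It fell by 1.40 on that scale, or 2.63-fold (SE 0.18, n = 2; limma adjusted p = 0.0297). Calm3 was at -1.32 and -2.40, a mean of -1.86 or 3.63-fold below control (SE 0.30, n = 2), and just missed the threshold of 0.05 (limma adjusted p = 0.0577). Calm3 had the lowest mean of all 19938 genes and Calm2 the eighth lowest. By p-value Calm2 came at place 31 and Calm3, whose repeats lay farther apart, at place 81. So 1 of the 2 calmodulin genes was called lower, where 0.171% of all genes were. With the repeat added to the model as a block, both were called (limma adjusted p = 0.00120 for Calm2 and 0.000284 for Calm3), where 3.48% of all genes were called lower. That block also takes up the spread between control arrays, so all blocked p-values against control, here and below, are too small.

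These calls depended on what else entered the fit. Without either rescue replicate, which leaves the spread to be estimated from the knockdown columns alone, Calm2 missed the threshold (limma adjusted p = 0.0692). It also missed it with each of the 35399 probe sets tested on its own (limma adjusted p = 0.395 for both Calm2 probe sets), a fit that called 0 probe sets. With 1 knockdown replicate left out, the single knockdown sample is assumed to vary like the rescue samples, which alone supply the spread. Under that assumption Calm3 passed without knockdown replicate 1 (-2.40, limma adjusted p = 4.59e-06) and without knockdown replicate 2 (-1.32, limma adjusted p = 0.0110).

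The comparison of the rescue with control asked how far the calmodulin probe sets stood below control when resistant calmodulin was supplied. The sources do not state whether those probe sets read the resistant construct, so these values may not be of endogenous RNA alone. Calm2 had log2 ratios of -0.84 and -1.28 in the rescue samples, a mean of -1.06 or 2.09-fold below control (SE 0.18, n = 2; limma adjusted p = 0.414). Calm3 was at -2.41 and -3.55, a mean of -2.98 or 7.90-fold below control (SE 0.30, n = 2; limma adjusted p = 0.154). Calm3 had both the lowest mean and the smallest p-value of all 19938 genes, yet neither calmodulin gene passed. Limma called 0 genes lower in this comparison (0% of those tested), with 1484 genes at an unadjusted p under 0.05 in either direction. With the repeat as a block, both calmodulin genes passed (limma adjusted p = 0.0129 for Calm2 and 1.58e-05 for Calm3), among 13 genes called lower, which are 0.0652% of all genes. As in the knockdown against control, those blocked p-values are too small. With the rescue columns alone both calmodulin genes passed too (limma adjusted p = 0.000306 for Calm2 and 3.02e-10 for Calm3), where 176 of all 19938 genes were called. Calm3 itself had an SD of 0.80 on the log2 scale there (n = 2), so a p-value that small rests on the spread of other genes.

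Within single samples Calm3 was the lowest of all 19938 genes in both rescue arrays. In knockdown repeat 1, 13 genes lay below Calm3, led by Npas4, an activity-induced transcription factor, at -2.07. In knockdown repeat 2 the genes below it were Calb2, which encodes the calcium buffer calretinin, at -2.82, and Neurod6, a transcription factor of excitatory cortical neurons, at -2.49. Calm2 had 35 and 9 genes below it in the knockdown samples, and 35 and 8 in the rescue samples. Calm3 was also the single gene at least 2-fold below control in all 4 samples, and 0.00502% of all genes met that condition.

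By size alone, both calmodulin genes were at least 2-fold below control in both knockdown repeats, as were 0.0802% of all genes. In the rescue that condition held for 3 genes, or 0.0150%. They were Calm3, Nptx1, which encodes a secreted neuronal pentraxin (-1.17 and -1.62), and Ppp3ca, a catalytic subunit of calcineurin (-1.42 and -1.35), the last pair being named after their values were seen. Calm2 was not among them, since it stood 1.79-fold below control in rescue repeat 1.

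**Figure D2:**
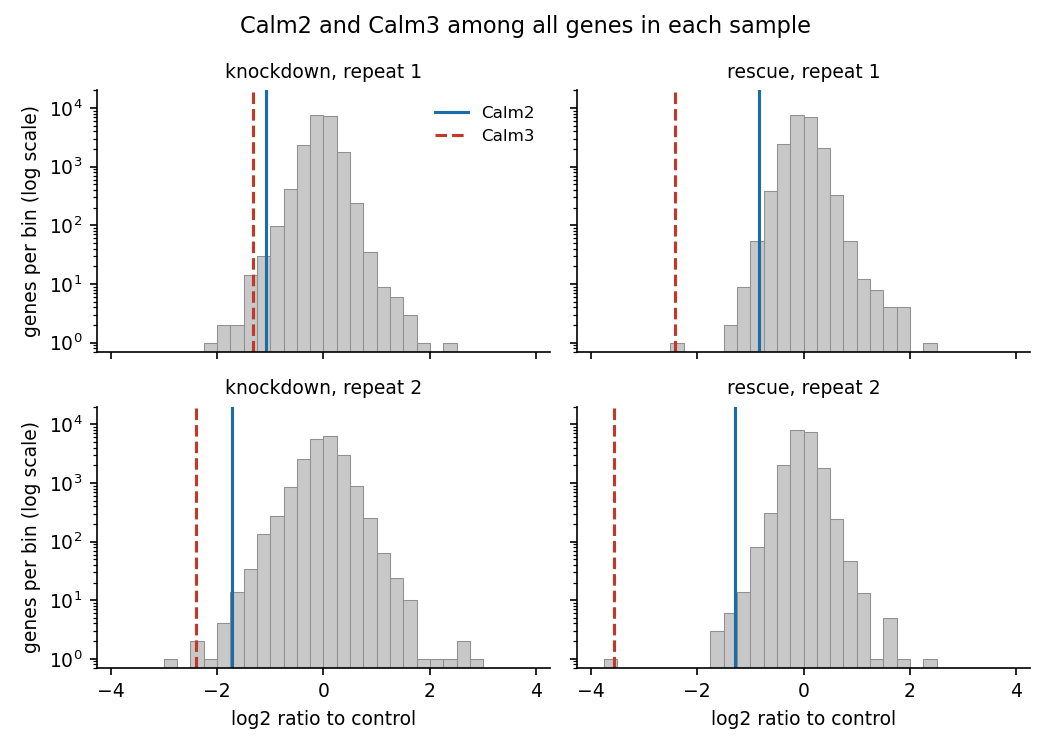
Number of genes per bin (vertical axis, log scale) against the log2 ratio to control (horizontal axis) in each of the 4 samples, with lines at Calm2 (solid) and Calm3 (dashed). Calm3 is the lowest gene of both rescue samples, at -2.41 and -3.55.

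Knockdown and rescue cultures both carried the shRNAs, so their comparison asked whether the calmodulin genes stood lower in one group than in the other. Whether the groups received the shRNAs in equal amount was not tested. Taken within a repeat, the shared control array cancels. Calm3 was 2.13-fold higher in the knockdown than in the rescue in repeat 1 and 2.22-fold higher in repeat 2 (log2 1.09 and 1.15). Calm2 pointed the other way, with knockdown minus rescue at -0.24 in repeat 1 and -0.43 in repeat 2. Both Calm2 probe sets shared that sign, at -0.18 and -0.21 for 10453451 and at -0.30 and -0.66 for 10599461. Of all 19938 genes, 2778 in repeat 1 and 1791 in repeat 2 lay lower than Calm2, so its difference was not unusual. By contrast, 38 and 60 genes lay higher than Calm3.

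The Calm3 difference averaged 1.12 on the log2 scale (95% interval 0.15 to 2.09, n = 2 per group) and was not called without the repeat in the model (limma adjusted p = 0.613), a fit that called 0.0401% of all genes higher and 0.0301% lower. That fit leaves out the pairing of samples by control array, which the repeat as a block keeps, with 1 residual degree of freedom. With the block the Calm3 difference had an interval of 0.79 to 1.46 and was called, higher in the knockdown (limma adjusted p = 0.0169), as were 0.186% of all genes. Without knockdown replicate 2, with the spread taken from the rescue columns alone, it was 1.66 and passed (limma adjusted p = 0.00559), and the other left-out samples gave no call. By size, Calm3 was one of 21 genes (0.105%) at least 2-fold higher in the knockdown than in the rescue in both repeats. After quantile normalization it was below that size in both (log2 0.93 and 0.84). For Calm2 the mean difference was -0.34 (95% interval -0.91 to 0.24; limma adjusted p = 1.00), and with the block the interval was -0.68 to 0.01 (limma adjusted p = 0.458). That interval leaves room for no difference and for a knockdown level well below the rescue.

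**Figure D3:**
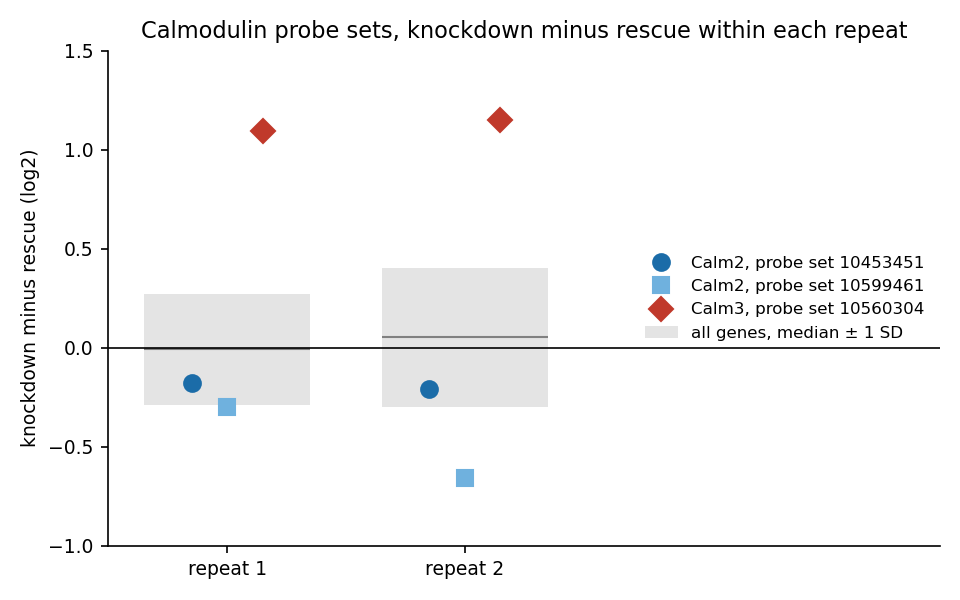
Knockdown minus rescue on the log2 scale (vertical axis) within each repeat for the 3 calmodulin probe sets. Grey boxes span the median of all genes ± 1 SD. Calm3 lies at 1.09 and 1.15, above the boxes. All Calm2 points lie below 0, and those of probe set 10453451 lie within the boxes.

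For Calm3 the repeats lay about as far apart as the groups did. Repeat 2 minus repeat 1 was -1.08 for Calm3 in the knockdown and -1.14 in the rescue, beside a knockdown minus rescue difference of 1.12. For Calm2 it was -0.64 in the knockdown and -0.44 in the rescue. Over all genes the same difference had a median of 0.02 and an SD of 0.34 in the knockdown, and a median of -0.01 and an SD of 0.30 in the rescue. Each repeat has its own control array, so a change of the calmodulin genes in the control and one in the infected cultures cannot be told apart here.

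Set against each other within a sample, the calmodulin genes were closer in the knockdown than in the rescue. The log2 difference Calm3 minus Calm2 was -0.24 and -0.69 in the knockdown samples, against -1.57 and -2.27 in the rescue samples. Relative to their own control levels, Calm3 was thus 1.18-fold and 1.61-fold lower than Calm2 in the knockdown samples, against 2.98-fold and 4.81-fold lower in the rescue samples. The mean was -0.46 ± 0.31 in the knockdown and -1.92 ± 0.49 in the rescue (SD, n = 2 each). The groups did not overlap, which was not compared with other pairs of genes. Among single genes, 16.5% had both knockdown values above both rescue values. The exact two-sided permutation test gave p = 0.333, the smallest value that 2 samples against 2 allow, so it cannot decide. Within the repeats, where the control cancels, the difference between the groups was 1.33 and 1.58. With each Calm2 probe set used alone it averaged 1.31 and 1.60.

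The genes whose values were most like those of Calm2 were found by Euclidean distance of the log2 ratios over the 4 samples. Nearest to Calm2 was Pak6, a p21-activated kinase, at a distance of 0.555. Next came Ppp3ca at 0.640, Ids, a lysosomal sulfatase, at 0.662, Nptx1 at 0.709 and Ap2a2, a subunit of the AP-2 adaptor of endocytosis, at 0.713. A gene with ratios equal to control in every sample would lie 2.54 from Calm2. Calm3 had no near neighbour, since Nptx1, the closest, was 2.35 away, followed by Ppp3ca at 2.58, Calm2 at 2.85, Krt73 at 2.93 and Ids at 2.98. A gene equal to control would lie 5.09 from Calm3. The knockdown and rescue values of a repeat share a control array, which enters every one of these distances.

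All 16 measured relatives of calmodulin among the EF-hand proteins had means nearer to control than Calm2 and Calm3. These means lay between -0.57 and 0.53 in the knockdown and between -0.58 and 0.35 in the rescue. None of the 16 measured was called in either direction in the knockdown against control, in the rescue against control or between these groups (limma without the block). At an unadjusted p under 0.05, 2 lay below and 1 above control in the knockdown, where 1803 and 1381 of all 19938 genes did, which is near the background for 16 genes. In the rescue 0 did. With the block 2 were called lower and 1 higher in the knockdown, where 3.48% and 1.91% of all genes were called. The lower genes were not the same: Caln1 and Tnnc1 at the unadjusted p, but Caln1 and Cabp7 with the block. The median of the relatives was 0.09 in the knockdown against control and 0.01 in the rescue against control, beside 0.00 and -0.01 over all genes. Calml4, a calmodulin-like protein, was at 0.36 and 0.70 in the knockdown samples, against 0.08 and 0.36 in the rescue samples (limma adjusted p = 0.135 for the knockdown against control; 0.0297 with the block). Calm4 averaged -0.02 in the knockdown, Calm5 0.13 and Calml3 -0.05. Caln1, a neuronal calcium-binding protein, was at -0.33 and -0.80 in the knockdown samples, against -0.29 and -0.16 in the rescue samples (limma adjusted p = 0.126; 0.0413 with the block). Cabp7, a relative of calmodulin that binds a Golgi lipid kinase, was at 0.08 and -1.11 in the knockdown samples, against -0.20 and -0.96 in the rescue samples (limma adjusted p = 0.400; 0.0420 with the block), and its repeats differed in sign in the knockdown.

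Of 54 calmodulin partners listed, 50 were measured. In the knockdown against control 2 fell and 0 rose, where 0.171% of all genes fell and 0.135% rose, and in the blocked fit 10 fell and 1 rose, where 3.48% and 1.91% of all genes did. In all, 43 of the 50 had a mean below 0, beside 9880 of all 19938 genes, and the list median was -0.25, beside 0.00. The repeats gave medians of -0.18 and -0.37. In the rescue against control 0 fell and 0 rose in limma. At an unadjusted p under 0.05, 2 lay below and 1 above, near the background of 896 and 588 of all 19938 genes, and the blocked fit called Ppp3ca lower, as it did 0.0652% of all genes. In that comparison 26 of 50 had a mean below 0, and the median was -0.01.

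By role, all 4 calcineurin genes and all 11 pumps and channels had a mean below 0 in the knockdown, as did 10 of 12 kinases, 7 of 9 second messenger enzymes and 5 of 6 calmodulin-storing proteins. Both partners that fell were M-current potassium channel subunits, whose channels carry calmodulin. Kcnq3 fell by 1.12 (limma adjusted p = 0.0281) and Kcnq5 fell by 0.98 (limma adjusted p = 0.0491). In the rescue samples Kcnq3 was at -0.49 and -0.08, and Kcnq5 at 0.03 and -0.02. Kcnq5 was lower in the knockdown than in the rescue with the repeat as a block (log2 -0.99, limma adjusted p = 0.0429; 0.229 without it), as were 0.431% of all genes.

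Among partners that did not pass, Ppp3ca was at -0.82 and -1.66 in the knockdown samples, against -1.42 and -1.35 in the rescue samples (limma adjusted p = 0.05004 for the knockdown against control). Itpka, an inositol trisphosphate kinase, was at -1.07 and -1.27 in the knockdown samples, against -0.48 and 0.31 in the rescue samples (limma adjusted p = 0.0548). Ppp3ca stood apart from its own group in the rescue, since the other 3 calcineurin genes averaged between 0.05 and 0.10 there. Other partners with the largest rescue means were Nos1, the neuronal nitric oxide synthase, at -0.53, Pcp4, a small calmodulin-binding protein, at 0.39, and Camk2a, a subunit of the calmodulin kinase of synapses, at -0.36, none of which passed (limma adjusted p = 0.574, 0.677 and 0.685).

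**Figure D4:**
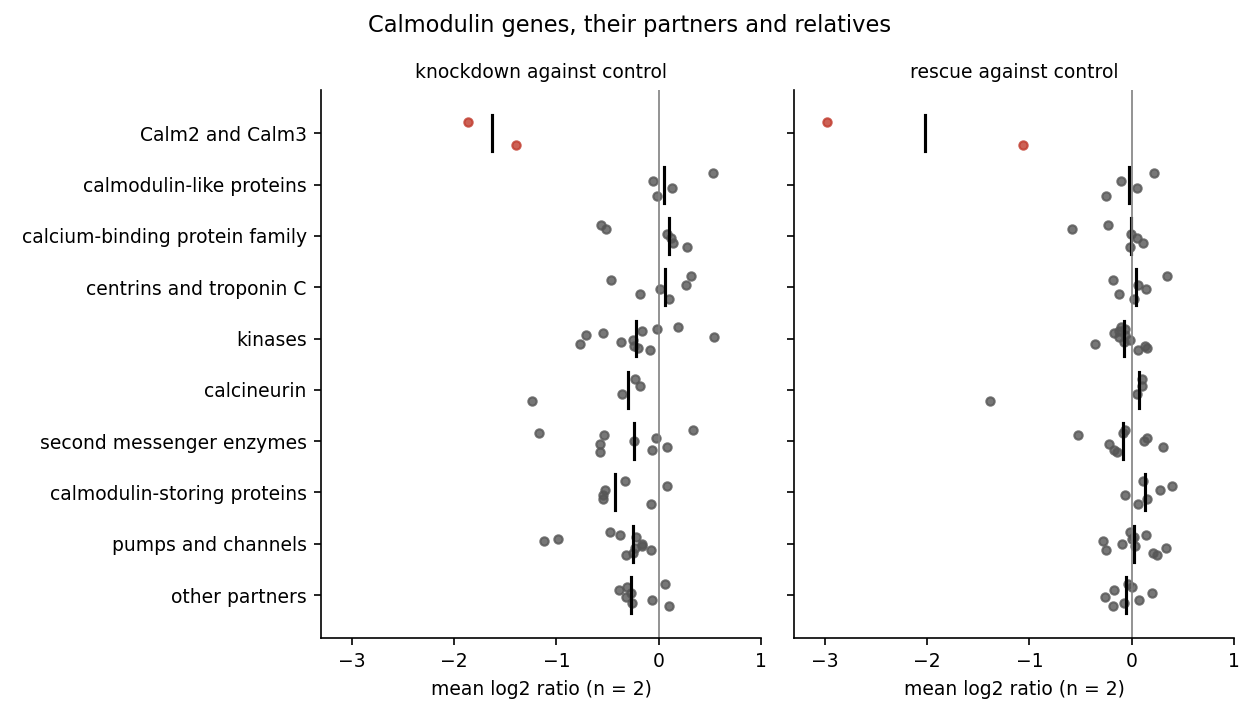
Mean log2 ratio to control (horizontal axis, n = 2 samples) of Calm2 and Calm3 and of each listed partner or relative, in the knockdown (left) and the rescue (right). Each point is 1 gene and each vertical bar the median of its group. Calm2 and Calm3 lie at -1.40 and -1.86 in the knockdown and at -1.06 and -2.98 in the rescue, while the medians of the other groups lie between -0.42 and 0.13.

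The medians of cell type marker lists lay nearer to control than the calmodulin genes did. Single markers ranged from -1.65 (Neurod6, below Calm2 at -1.40) to 1.23 (Nefm) in the knockdown, and from -0.87 to 0.50 in the rescue. General neuron markers had medians of -0.09 in the knockdown and 0.00 in the rescue, and 5 of 10 had a mean below 0 in each. Excitatory neuron markers had medians of -0.53 in the knockdown and -0.12 in the rescue, with 5 of 5 and 3 of 5 members below 0. Interneuron markers had medians of -0.12 in the knockdown and -0.31 in the rescue, and 7 of 8 had a mean below 0 in each. Their knockdown medians differed in sign between the repeats, at 0.17 in repeat 1 and -0.49 in repeat 2. In the rescue they were -0.30 and -0.56. Astrocyte markers had medians of 0.37 in the knockdown, with 10 of 10 above 0, and -0.06 in the rescue. Medians were -0.13 in the knockdown and -0.26 in the rescue for microglia, -0.06 and -0.11 for the oligodendrocyte lineage, and 0.14 and 0.05 for fibroblasts and endothelium. None of these 60 markers passed the threshold without the block in either group against control. At an unadjusted p under 0.05, 8 were below and 11 above control in the knockdown, beside 1803 and 1381 of all 19938 genes. In the rescue 14 were below and 1 above, beside 896 and 588 of all genes. With the block, 6 were called lower and 5 higher in the knockdown (3.48% and 1.91% of all genes), and 1 and 0 in the rescue (13 and 12 of all genes). Their part in the calmodulin values was not tested. In these bulk samples, fewer cells of a type and less RNA per cell cannot be told apart. As ratios hold no level, whether the cultures expressed the markers could not be checked.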

How the data were processed

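The authors deposited 1 table of linear ratios, in which each test array is divided by the control array of its own repeat, per the series design text. How arrays were background-corrected, summarized and normalized, and on which genome build, was not given in the sources used here. Control arrays were not analysed here. Without signal levels no filter on dim probe sets could be set, and the precision is limited by the number of arrays.

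Ratios were put on the log2 scale without centring and averaged over the probe sets with 1 symbol (21789 of 35399; 1621 had several and 11989 were not listed), which gave 19938 genes. Symbols of 21698 were matched to RefSeq names (GRCm38.p6) by Entrez identifier, and 0 changed. Genes were fitted with limma 3.58.1 in R 4.3.3 (lmFit, eBayes, two-sided) with a coefficient per group over all 4 columns, Benjamini-Hochberg adjusted over all genes, threshold 0.05. The test of a group mean was against 0, where test and control are equal. There were 2 residual and 6.11 prior degrees of freedom. The method was run on simulated data to check its mean effect sizes, and the calls made here draw no support from that.

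Per the labels, same-numbered samples share a replicate date, so the numbers pair them, and their deviations correlated at 0.305 across genes. The blocked fit, with the repeat as a term, had 1 residual degree of freedom. Against control, that term takes up the spread between control arrays as well, and p-values there are too small.

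The members and lists were chosen with earlier results of these data known. Named were all calmodulin probe sets, relatives, partners that passed or had 1 of the 4 largest means per group, up to 3 genes below a member in a sample, and the 5 genes nearest to each member (2945 predicted genes, receptors of smell and small RNAs were not named).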

Additional observations from a re-analysis of the deposited data

How the results depend on the processing

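No alternative reversed the direction of a calmodulin value. Leaving out 1 sample at a time gave -1.72 to -1.08 for Calm2 in the knockdown against control, -2.40 to -1.32 for Calm3 there, -1.28 to -0.84 and -3.55 to -2.41 for Calm2 and Calm3 in the rescue against control, and -0.65 to -0.02 and 0.55 to 1.69 for their knockdown minus rescue difference. With the repeat as a block the values were -1.86 (limma adjusted p = 0.000284) for Calm3 in the knockdown, -1.06 (0.0129) and -2.98 (1.58e-05) for Calm2 and Calm3 in the rescue, and 1.12 (0.0169) for Calm3 between the groups, all now past the threshold. The block changed no other call of a calmodulin gene. Quantile normalization brought Calm3 past the threshold in the knockdown (-1.68, limma adjusted p = 0.0129) and in the rescue (-2.56, 0.00607). Under it knockdown minus rescue was 0.93 and 0.84 for Calm3 in the repeats, and -0.10 for Calm2 in repeat 2. With the columns of the compared group alone Calm2 missed in the knockdown (-1.40, limma adjusted p = 0.0692), and Calm2 (-1.06, 0.000306) and Calm3 (-2.98, 3.02e-10) passed in the rescue. With each probe set tested, Calm2 missed in the knockdown (-1.33 and -1.47, limma adjusted p = 0.395). Counts of genes past the threshold in the knockdown against control were 61, against 1074 with the block, 94 after quantile normalization, 12 with its own columns alone, 0 with each probe set tested, and 12 to 1272 with 1 sample left out. In the rescue against control they were 0, against 25 with the block, 1 after quantile normalization (Calm3), 176 with its own columns alone, 0 with each probe set tested, and 0 to 176 with 1 sample left out. Between the groups they were 14, against 123 with the block, 5 after quantile normalization, 4 with probe sets of several symbols added, 0 with each probe set tested, and 0 to 350 with 1 sample left out. Centring on the column median changed no calmodulin call.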

Other observations

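Over all 35399 probe sets, listed or not, Calm3 had 46 and 6 probe sets below it in the knockdown samples and 2 and 1 in the rescue samples. All of those in the rescue samples are absent from the annotation used here and are left unnamed. In the knockdown samples 33 and 4 of them are not listed there.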
